A study of Arabidopsis thaliana with 12 samples.

Results

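CCS (AT1G12520), GLDH (AT3G47930) and AT3G52960 are 3 nuclear genes of the antioxidant system of Arabidopsis thaliana. They were taken as the rows of the array table whose platform annotation names exactly 1 gene, that gene being 1 of these 3. Each has 1 row, so the set holds 3 of 3439 rows, of which 692 name exactly 1 gene. Their transcript signal was compared between wild type of ecotype Columbia 0 (6 arrays) and a double mutant titled stn7 stn8, in which the thylakoid kinases STN7 and STN8 are both missing. Mutant replicates 4 and 5 hold the same values and were counted once, as replicate 4/5, which leaves 5 distinct mutant arrays. The genotype stands only in the sample titles, while the source field names wild type for every sample. Organ, age, light, mutant alleles, array type and the origin of the replicates are not given in the labels, so p-values measure only the spread between arrays, which may be technical.

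Chloroplasts in the light pass some electrons to oxygen and form superoxide, which superoxide dismutases turn into hydrogen peroxide. Copper/zinc superoxide dismutases receive their copper from the chaperone CCS. Hydrogen peroxide is then removed with ascorbate, whose last synthetic step is carried out by the mitochondrial enzyme GLDH, or by thiol peroxidases such as the plastid peroxiredoxin encoded by AT3G52960, known as PrxIIE. GLDH is also needed in Arabidopsis for the assembly of respiratory complex I. STN7 and STN8 phosphorylate the antenna and core proteins of photosystem II.

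Intensities were deposited on a linear scale. Summed over all rows they lay between 3586 and 3682 on every array. The median log2 intensity lay between -1.648 and -1.357 on the wild-type arrays and between -1.003 and -0.944 on the mutant arrays. With like sums and unlike medians, the 2 groups differ in the shape of their distribution as deposited. The arrays were therefore quantile normalized on the log2 scale, so that a difference is read against that of all rows together. The medians resembled each other within wild-type arrays of consecutive numbers (1 and 2, 3 and 4, 5 and 6). None of the 3 genes was listed at 0 on any array. The number of arrays limits the precision, and in bulk RNA fewer cells of a type and less RNA per cell cannot be told apart.

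None of the 3 genes passed the test in the double mutant. The fitted level of CCS was 1.13 times that of wild type (95% confidence interval 0.976 to 1.31), that of GLDH was 0.801 times (0.606 to 1.06) and that of AT3G52960 was 0.899 times (0.755 to 1.07). With limma the count was 0 of 3 at an adjusted p under 0.05, 0 of 3 at an unadjusted p under 0.05, and 0 of 3 with an exact permutation test of each gene. Over the whole table limma called 43.3% of 3229 tested rows, 23.7% higher and 19.6% lower in the mutant. The groups did not overlap in 28.9% of rows, and in 0 of the 3 genes. After quantile normalization the intervals leave room for differences of up to 1.31-fold for CCS and down to 0.606-fold for GLDH. These limits depend on the scaling. On the deposited values, where the median log2 fold change of all rows was 0.504, the interval was 1.45 to 2.09 for CCS and 0.955 to 1.55 for GLDH. With arrays centred on their medians that of CCS was 1.03 to 1.39.

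**Figure D1:**
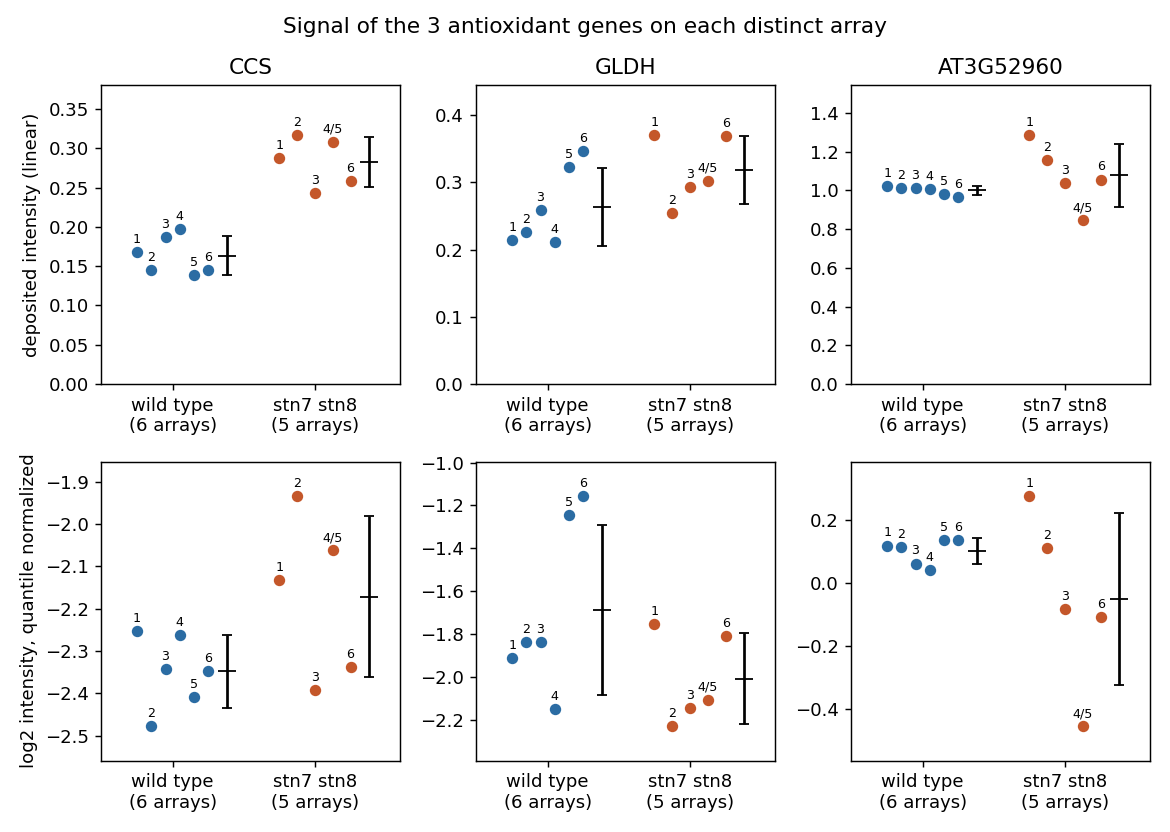
Signal of CCS, GLDH and AT3G52960 on each distinct array, as deposited (top, linear intensity from 0) and after quantile normalization (bottom, log2 intensity). Points are arrays with their replicate number, and the bar beside each group is its mean with 1 SD; the 5 mutant arrays of CCS lie above all 6 wild-type arrays as deposited and overlap them after normalization, and the 6 wild-type values of AT3G52960 lie close together in both.

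CCS, the copper chaperone, had a higher mean in the mutant under each scaling tried, by a size that depended on the scaling. Its deposited intensity in wild type was 0.168, 0.145, 0.186, 0.197, 0.138 and 0.146 in replicates 1 to 6. In the mutant it was 0.288, 0.317, 0.242, 0.308 and 0.259 in replicates 1, 2, 3, 4/5 and 6. Every mutant array was above every wild-type array as deposited, which also holds for 41.1% of all tested rows (46.7% were apart in either direction). After quantile normalization the log2 values were -2.25, -2.48, -2.34, -2.26, -2.41 and -2.35 in wild type. They were -2.13, -1.93, -2.39, -2.06 and -2.34 in the mutant. Mutant replicates 1, 2 and 4/5 then lay above the wild-type range, while mutant replicates 3 and 6 lay within it.

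The group means of CCS on this normalized log2 scale were -2.35 ± 0.086 in wild type (SD, n = 6) and -2.17 ± 0.19 in the mutant (SD, n = 5). The difference was 0.18 ± 0.097 (SE, limma adjusted p = 0.162), smaller than the spread of the mutant arrays. On the deposited log2 values the difference was 0.80 (limma adjusted p = 0.00015), where 56.2% of rows were called higher and 8.7% lower. With arrays centred on their medians it was 0.26 (limma adjusted p = 0.049), where 19.5% were called higher and 26.6% lower. After cyclic loess it was 0.14 (limma adjusted p = 0.312), where 22.2% were called higher and 20.2% lower. CCS was thus past the threshold under 2 of these 4 scalings.

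GLDH, which completes ascorbate synthesis, had its highest normalized values in a pair of wild-type arrays. Its deposited intensity was 0.215, 0.227, 0.258, 0.212, 0.323 and 0.346 in wild-type replicates 1 to 6. In mutant replicates 1, 2, 3, 4/5 and 6 it was 0.371, 0.255, 0.293, 0.302 and 0.369. The groups overlapped, and 2 mutant arrays exceeded the wild-type maximum. After normalization the log2 values were -1.91, -1.84, -1.84, -2.15, -1.24 and -1.16 in wild type. They were -1.75, -2.23, -2.14, -2.11 and -1.81 in the mutant. Wild-type replicates 5 and 6 were then the highest of all arrays, and wild-type replicates 1 to 4 lay among the mutant arrays.

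The normalized log2 mean of GLDH was -1.69 ± 0.40 in wild type (SD, n = 6) and -2.01 ± 0.21 in the mutant (SD, n = 5), and all 5 mutant arrays lay below the wild-type mean. The difference of -0.32 ± 0.18 (SE) did not pass (limma adjusted p = 0.186). Without wild-type replicates 5 and 6, it was -0.074 (limma adjusted p = 0.644). The direction depended on the scaling as well. It was 0.28 on the deposited log2 values (limma adjusted p = 0.14), -0.25 with arrays centred on their medians (limma adjusted p = 0.3) and -0.35 after cyclic loess (limma adjusted p = 0.155). GLDH passed the threshold under none of the 4 scalings. Wild-type arrays with consecutive numbers differed in GLDH by 0.16 log2 units on average (3 pairs), and other pairs of wild-type arrays by 0.541 (12 pairs). For AT3G52960 these values were 0.00924 and 0.0564. CCS did not share the pattern, at 0.122 and 0.1.

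AT3G52960, the plastid peroxiredoxin, was nearly level across the wild-type arrays and scattered in the mutant. Its deposited intensity was 1.02, 1.01, 1.01, 1.005, 0.981 and 0.965 in wild-type replicates 1 to 6. In mutant replicates 1, 2, 3, 4/5 and 6 it was 1.29, 1.16, 1.04, 0.847 and 1.06. Thus 4 mutant arrays lay above the wild-type range and replicate 4/5 lay below it. The normalized log2 values were 0.12, 0.11, 0.062, 0.042, 0.14 and 0.14 in wild type. They were 0.28, 0.11, -0.082, -0.45 and -0.11 in the mutant. On this scale mutant replicate 1 was above the wild-type range, replicate 2 within it, and replicates 3, 4/5 and 6 below it.

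The normalized log2 mean of AT3G52960 was 0.10 ± 0.040 in wild type (SD, n = 6) and -0.052 ± 0.27 in the mutant (SD, n = 5), a difference of -0.15 ± 0.12 (SE, limma adjusted p = 0.311). Without mutant replicate 4/5 the difference was -0.053 (limma adjusted p = 0.689), and without mutant replicates 1 and 2 it was -0.33 (limma adjusted p = 0.0313). Replicate 4/5 was the lowest mutant array and replicates 1 and 2 the highest, so the direction of both shifts was largely built in. With arrays centred on their medians the gene was called lower, at -0.44 (limma adjusted p = 0.00741). There 26.6% of all tested rows were called lower. Of the 323 rows within 5 percentile points of its brightness 45.2% were called lower, and their median was -0.284. On that scale all 5 mutant arrays lay below the 6 wild-type arrays, as in 19.2% of rows. On the deposited log2 values the difference was 0.095 (limma adjusted p = 0.435), and after cyclic loess -0.16 (limma adjusted p = 0.258). The sign of its mean difference thus depended on the scaling, and 1 of 4 scalings gave a call.

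The spread within groups differed between the 3 genes. For AT3G52960 the SD of the normalized log2 values was 6.83 times as large in the mutant as in wild type, and 0.496% of tested rows had a higher ratio. This came mainly from its wild-type SD of 0.0401, below that of 99.7% of rows, while 32.9% of rows had a higher SD in the mutant than its 0.274. The ratio was 6.94 on the deposited values, 4.5 after cyclic loess and 2.24 with median-centred arrays, and 4.48 on the normalized values without mutant replicate 4/5. For CCS the ratio was 2.22, exceeded in 12.9% of rows, but it was 0.776 on the deposited values, so the order of its groups in spread depended on the scaling. For GLDH it was 0.536, with a wild-type SD of 0.397 exceeded in 16.8% of rows, and it lay between 0.521 and 0.755 under the other 3 scalings. The median ratio of all tested rows was 1.04. These percentages describe the arrays, and the difference in spread was not tested.

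**Figure D2:**
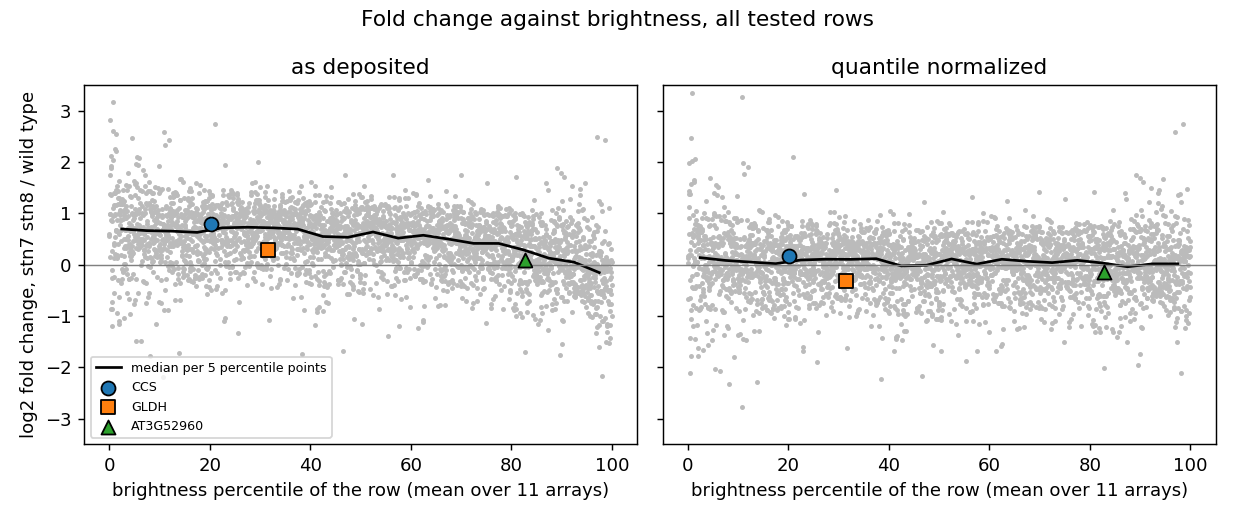
Log2 fold change of the mutant over wild type (vertical axis) against the brightness percentile of each tested row (horizontal axis), on the deposited values (left) and after quantile normalization (right). Grey points are the 3229 tested rows (2 lie outside the plotted range in at least 1 panel). The black line is the median per 5 percentile points. Among the 3 marked genes, CCS lies near or slightly above the line, and GLDH and AT3G52960 lie below it. On the left the line falls with brightness, on the right it stays near 0.

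The 3 genes lie at different brightness. CCS was at the 20.2 percentile of mean normalized signal among tested rows, GLDH at the 31.5 percentile and AT3G52960 at the 82.8 percentile. These positions describe the spots, since signals of different probes give no order of transcript levels. On the deposited log2 values the difference between mutant and wild type depended on brightness. Among the 323 rows within 5 percentile points of CCS the median log2 fold change was 0.656, around GLDH it was 0.676, and around AT3G52960 it was 0.255. The median over all rows was 0.504.

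Each gene was therefore also set against rows of similar brightness on the same array, a comparison chosen after seeing the data, in which any factor common to an array cancels. CCS was 0.17 log2 units higher in the mutant relative to such rows (exact permutation p = 0.117, n = 6 and 5). GLDH was 0.39 lower in the mutant (difference -0.39, exact permutation p = 0.0996, n = 6 and 5). AT3G52960 had a difference of -0.15 (exact permutation p = 0.156, n = 6 and 5). After Benjamini-Hochberg adjustment over the 3 genes each p was 0.156, so none passed. Single arrays moved these values: without mutant replicate 2 CCS was at 0.097, and AT3G52960 was at -0.062 without mutant replicate 4/5 and at -0.22 without mutant replicate 1 (adjusted exact permutation p = 0.0429). On quantile normalized values the 3 differences were 0.16, -0.375 and -0.16, and after cyclic loess 0.17, -0.38 and -0.15. Such a comparison takes out most of what a scaling does to rows of like brightness, so closeness between scalings was largely built in. The plain fold changes were close between quantile normalization and cyclic loess, and differed from these on the deposited values.

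**Figure D3:**
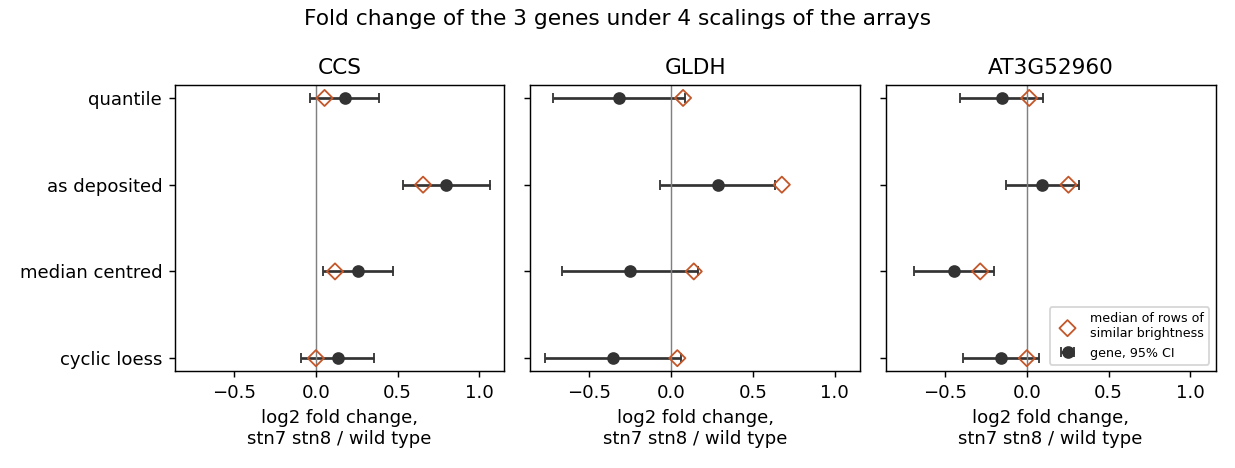
Log2 fold change of the mutant over wild type (horizontal axis) for CCS, GLDH and AT3G52960 under 4 scalings of the arrays (vertical axis). Filled points are limma estimates with 95% confidence intervals, and open diamonds are the median of the 323 rows of similar brightness; gene and diamond move together from 1 scaling to the next.

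The position of a gene among the rows above 0 on its own array does not depend on any scaling that keeps the order of rows. CCS stood at the 19.3 ± 1.81 percentile in wild type and at the 23.4 ± 4.56 percentile in the mutant (SD, n = 6 and 5, exact permutation p = 0.0736). GLDH stood at 37.0 ± 12.04 and 27.6 ± 5.69 (exact permutation p = 0.193). AT3G52960 stood at 83.4 ± 0.561 and 80.7 ± 4.78 (exact permutation p = 0.16). After adjustment over the 3 genes each p was 0.193. Without mutant replicate 3 the CCS difference was 5.38 points instead of 4.10, and without mutant replicate 1 that of AT3G52960 was -4.02 instead of -2.74, each with an adjusted exact permutation p = 0.0429. Without mutant replicate 2 the CCS difference was 2.62, and without mutant replicate 4/5 that of AT3G52960 was -0.857, and neither passed.

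In ratios between the genes on the same array any factor common to that array cancels, but a difference that depends on brightness does not. A ratio between probes has no meaning as a level, and only its difference between groups is read. The log2 ratio of CCS over AT3G52960 on the deposited values was -2.61, -2.80, -2.44, -2.35, -2.83 and -2.73 in wild-type replicates 1 to 6. It was -2.16, -1.87, -2.10, -1.46 and -2.03 in mutant replicates 1, 2, 3, 4/5 and 6. All 5 mutant arrays lay above all 6 wild-type arrays.

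The mean ratio of CCS over AT3G52960 rose from -2.63 ± 0.20 in wild type to -1.92 ± 0.28 in the mutant (log2, SD, n = 6 and 5). The difference of 0.70, or 1.63-fold, had an exact permutation p = 0.00216, which is the lower limit of a test over 462 splits, and 0.00649 after adjustment over 3 pairs of genes. Of all other tested rows, 27% had a ratio over AT3G52960 that was higher on every mutant array. After quantile normalization the difference was 0.33 (adjusted exact permutation p = 0.0519) and after cyclic loess 0.29 (adjusted exact permutation p = 0.0909). With wild-type arrays of consecutive numbers averaged, it was still 0.70 with an adjusted exact permutation p = 0.0536, the lowest that 3 against 5 arrays allow when 1 of the 3 pairs stands out, so this setting could not pass. The rows of similar brightness differ by 0.656 around CCS and 0.255 around AT3G52960 on the same deposited scale, and the part of this in the ratio was not tested.

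For GLDH over AT3G52960 the log2 ratio was -1.95 ± 0.34 in wild type and -1.76 ± 0.28 in the mutant. The difference was 0.19 (exact permutation p = 0.325, n = 6 and 5, the same after adjustment). It was -0.17 after quantile normalization. For CCS over GLDH the log2 ratio was -0.67 ± 0.47 in wild type and -0.16 ± 0.33 in the mutant, and the difference was 0.51 (exact permutation p = 0.0844, n = 6 and 5, adjusted 0.127). The groups overlapped in both ratios, with wild-type replicates 5 and 6 at the low end for CCS over GLDH. A difference between the groups was therefore past the threshold for 1 of 3 pairs, on the deposited values and not after quantile normalization or cyclic loess. Centring an array on its median leaves a ratio within that array unchanged, so that scaling gives the same result as the deposited values.

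**Figure D4:**
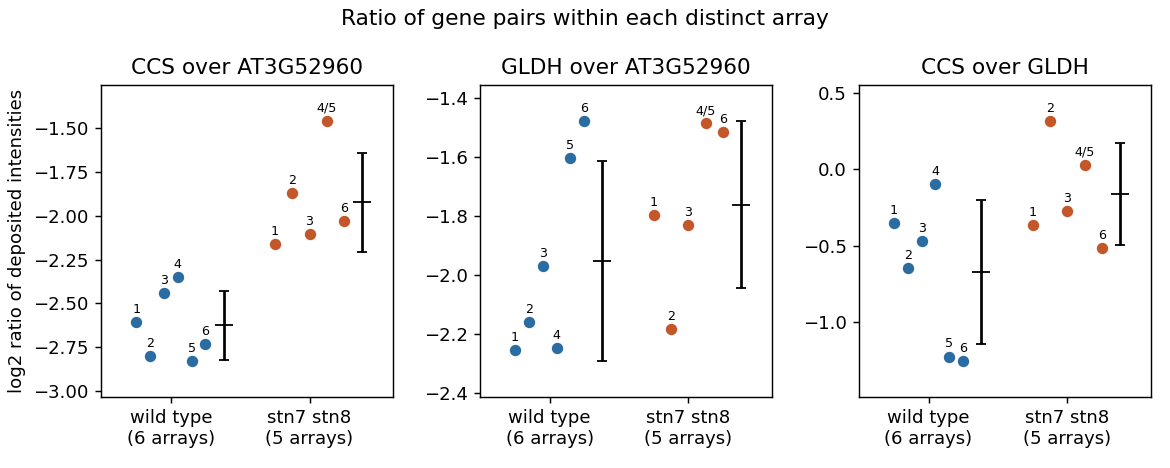
Log2 ratio of deposited intensities between pairs of the 3 genes within each distinct array (vertical axis), for wild type and the stn7 stn8 mutant. Points are arrays with their replicate number and bars are mean and 1 SD; for CCS over AT3G52960 the mutant arrays run from -2.16 to -1.46 and the wild-type arrays from -2.83 to -2.35.

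Little of the wider antioxidant system had a row of its own. Of 100 genes in 8 lists of antioxidant and related functions, 6 had a row naming 1 gene, the 3 described here included. Of these 6, 0 were called higher, 1 was called lower and 5 did not pass, where 23.7% of all tested rows were called higher and 19.6% lower. Their median log2 fold change was -0.211 against 0.0575 over all tested rows. On the deposited values it was 0.324 against 0.504, with 2 called higher and 1 lower. Superoxide dismutases and catalases (10 genes), which include the clients of CCS, had no such row, and neither had the ascorbate-glutathione cycle (20), tocopherol synthesis (6) or complex I (7). Copper delivery and ascorbate synthesis, with 10 genes each, had a row for CCS and GLDH alone.

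Among the 18 peroxiredoxins, glutathione peroxidases and related enzymes, AT3G52960 and SRX were measured. SRX is sulfiredoxin, which repairs over-oxidised 2-Cys peroxiredoxins, a class to which AT3G52960 does not belong. The normalized log2 values of SRX were -2.23, -1.97, -2.27, -2.45, -2.39 and -2.28 in wild-type replicates 1 to 6. They were -2.22, -1.94, -2.998, -2.58 and -2.93 in mutant replicates 1, 2, 3, 4/5 and 6. As with AT3G52960, mutant replicates 1 and 2 were the highest mutant arrays and the other 3 lay below the wild-type range. The SRX difference was -0.27 ± 0.18 (SE, limma adjusted p = 0.262). It was -0.56 without mutant replicates 1 and 2 (limma adjusted p = 0.00877), where 561 of all rows were called lower. Leaving out the highest mutant arrays largely built in a lower value, so nothing is concluded from it.

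The 19 plastid thioredoxins, glutaredoxins and their reductases, which feed electrons to peroxiredoxins, had 2 rows. AT2G04700, the catalytic subunit of ferredoxin-thioredoxin reductase, was the gene called lower, with deposited intensities from 0.807 to 0.928 in wild type and from 0.446 to 0.616 in the mutant. Its normalized level fell to 0.458 of wild type (limma adjusted p = 8.68e-06), and it passed under each of the 4 scalings. NTRC, a reductase of 2-Cys peroxiredoxins, had normalized log2 means of -1.18 ± 0.32 and -1.24 ± 0.32 (SD, n = 6 and 5), a difference of -0.053 (limma adjusted p = 0.837). In NTRC, as in GLDH, wild-type replicates 5 and 6 were the highest wild-type arrays, at -0.78 and -0.77.

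Green leaf markers gave the only check of the tissue. Of 11 such genes 4 had a row, PRK, SBPASE, PSBW and PSAN, and none of these was at 0 on any array. Their summed deposited intensity, most of it from PSBW, lay between 44.5 and 58.4 in wild type and between 24.98 and 31.1 in the mutant. The difference between groups depended on brightness on that deposited scale, as described above. PRK and PSAN were called lower in the mutant by limma after quantile normalization, as were 19.6% of all tested rows. The other 2 did not pass. The call of PRK was lost on the deposited values and with consecutive arrays averaged in both groups. That of PSAN was lost with consecutive arrays averaged in wild type or in both groups, and when 1 of 5 single arrays was left out (wild-type replicate 1 or 2, mutant replicate 3, 4/5 or 6). PSBW was called lower under the other 3 scalings. There 8.7% of all tested rows were called lower as deposited, 26.6% after median centring and 20.2% after cyclic loess. SBPASE, at 0.16, had the opposite sign. It passed as higher on the deposited values (0.50, limma adjusted p = 0.0282), without wild-type replicates 5 and 6 (0.37, limma adjusted p = 0.0256) and with a replicate block, the identical arrays standing as number 4 (0.29, limma adjusted p = 0.0269), so the 4 markers did not move together. Of 9 markers of root, flower or seed 0 had a row. The part of these marker values in those of the 3 genes was not tested.

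The 3 genes showed no common pattern over the arrays once each group's mean was subtracted. Over 11 arrays, Pearson's r of these deviations was -0.297 between CCS and GLDH, 0.0678 between CCS and AT3G52960 and 0.26 between GLDH and AT3G52960. These r describe the arrays, which share their normalization, and consecutive wild-type arrays are not clearly separate samples. Among 626 other rows that name 1 gene and have all 11 values, those most like CCS were AT5G65490 and AT5G48830 (r = 0.777 each) and AT3G15490 (r = 0.745). None of them passed the test in the mutant. Their normalized log2 fold changes were 0.39, 0.13 and 0.55, of the same sign as that of CCS. On the deposited values all 3 were called higher, as CCS was, at 0.99, 0.75 and 1.15 (limma adjusted p = 0.00217, 0.000938 and 0.0178). On that scale 56.2% of all tested rows were called higher, and 61.3% of the rows of similar brightness to CCS.

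The rows most like GLDH were AT2G13690 (r = 0.912), AT1G18060 (r = 0.898) and AT1G03810 (r = 0.873), and none passed. Their normalized log2 fold changes were -0.25, -0.33 and 0.0995. The rows most like AT3G52960 were NdhS (r = 0.887), LpxA (r = 0.86) and AT2G25830 (r = 0.85). NdhS is the ferredoxin-binding subunit of the chloroplast NDH complex, and LpxA is an acyltransferase named for the lipid A pathway. For AT3G52960, likeness over the arrays did not go with a like difference between the groups. NdhS was higher in the mutant by 0.86 ± 0.13 on the log2 scale (SE, limma adjusted p = 0.000273), although it was at -0.13 with arrays centred on their medians (limma adjusted p = 0.393). AT2G25830 was lower by 0.64 (log2 fold change -0.64, limma adjusted p = 0.00234), and on the deposited values it was at -0.046 (limma adjusted p = 0.782). LpxA gave -0.067 (limma adjusted p = 0.733).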

How the data were processed

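The values are intensities on a linear scale as deposited by the authors in 1 table of 12 arrays and 3439 rows; the sources used here give neither scaling nor background subtraction nor array type. Groups and replicate numbers came from sample titles. Mutant replicates 4 and 5 (largest difference 4e-10) were averaged to 1 sample. Zeros were set to missing, values were log2 transformed and quantile normalized, and rows with at least 4 values per group were fitted with limma 3.58.1 (lmFit, eBayes, two-sided) in R 4.3.3. This left 3229 rows, over which p-values were adjusted by Benjamini-Hochberg with a threshold of 0.05. Ratios, percentiles and differences from rows of similar brightness were tested by exact permutation (two-sided, 462 splits of the arrays).

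Genes were named from the platform annotation, and loci from the TAIR10.1 gene table, which held 690 of 692 single names. No detection flags were used. The text names the 3 genes, every listed gene with its own row, and per gene the 3 rows with the highest r of deviations. Genes and lists were chosen with earlier results of these data known. Alternatives changed scaling, zeros, dim rows, variance model, weights, blocks, threshold and arrays. The fit was tested on simulated data. Same-numbered arrays of the 2 groups had r of deviations from 0.00938 to 0.228. For 4 of 5 mutant arrays the highest r was with the wild-type array of their own number. The labels name no pairs, so the main tests treat the arrays as unpaired, and fits with a replicate block are given below.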

Additional observations from a re-analysis of the deposited data

Results flagged for a closer look

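In 50 groups of values of the genes and ratios named above, 1 group had a single array set well apart; by chance about 1 group in 20 would. It was LpxA, with a normalized log2 intensity of -0.298 on wild-type replicate 6, while the other wild-type arrays lay between -0.0798 and 0.0473. None of the values of CCS, GLDH or AT3G52960 stood apart in this way.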

How the results depend on the processing

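CCS kept its sign in all 28 alternatives, with log2 fold changes from 0.055 to 0.80, and passed in 2, after median centring (0.26) and on the deposited values (0.80). GLDH passed in 0 of 29 and turned on the deposited values (0.28). AT3G52960 passed in 2 of 29, with arrays centred on their medians (-0.44) and without mutant replicates 1 and 2 (-0.33), and turned on the deposited values (0.095). Leaving out single arrays gave 0.12 to 0.23 for CCS, -0.41 to -0.21 for GLDH and -0.24 to -0.053 for AT3G52960. Rank differences then ran from 2.62 to 5.38, from -11.99 to -6.06 and from -4.02 to -0.857. The log2 ratio of CCS over AT3G52960 lost its call after quantile normalization (0.33), after cyclic loess (0.29) and with consecutive arrays averaged in both groups (0.67) or in wild type (0.70). It kept its call, at 0.20, when the median intensity was added to every value first. Both averaged settings could not pass, since 3 against 3 arrays allow no exact p under 0.1 and 3 against 5 no adjusted p under 0.0536 for 1 pair alone. The ratio of GLDH over AT3G52960 turned after quantile normalization (-0.17) and cyclic loess (-0.20).

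With a replicate block, the identical arrays standing as number 4 or 5, log2 fold changes were 0.165 and 0.194 for CCS, -0.23 and -0.41 for GLDH and -0.15 and -0.16 for AT3G52960, and none passed. Rows called higher were 796 and 818 and rows called lower 629 and 632, against 766 and 632 without the block. In the pairing check 4 of 5 mutant arrays correlated best with the wild-type array of their own number, a hint from the data only. Sign flips of the same-numbered pairs gave 0.66 for CCS over AT3G52960 (adjusted exact p = 0.188), where 5 pairs cannot pass.

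Rows called higher numbered 1814 on the deposited values, 417 with consecutive arrays averaged in both groups, 506 with them as a random block and 507 at a threshold of 0.01. Rows called lower numbered 281 on the deposited values and 387 with consecutive arrays averaged in both groups. Of the 6 list genes 3 were called with median-centred arrays (1 higher, 2 lower). There 19.5% of all tested rows were called higher and 26.6% lower. On the deposited values 3 were called as well (2 higher, 1 lower), against 56.2% of rows higher and 8.7% lower. Without mutant replicates 1 and 2 the count was again 3, with 699 of all rows called higher and 561 lower. Among the other genes, the deposited values turned SRX (0.36), NTRC (0.47), AT2G13690 (0.33), AT1G18060 (0.28) and LpxA (0.22). Centring on medians turned SBPASE (-0.042), AT1G03810 (-0.31) and NdhS (-0.13). Array weights turned NTRC (0.12) and AT2G13690 (0.049), the replicate block with the identical arrays as number 4 turned NTRC (0.028), and leaving out wild-type replicates 5 and 6 turned NTRC (0.15) and AT2G13690 (0.086). AT5G65490 was at -0.0031 without mutant replicates 1 and 2. With single arrays left out NTRC ran from -0.14 to 0.060 and LpxA from -0.15 to 0.069. The cause of these changes was not tested.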
